A study of Bos taurus with 18 samples.

Results

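The comparison set the 8-cell stage of bovine preimplantation development against both of its neighbours, the 4-cell and the 16-cell stage, to find genes whose RNA was highest or lowest at 8 cells alone. The stages compared held 9 of the 18 libraries of the series, 3 each, and the spread behind each p-value was estimated over all 18. A gene was called an 8-cell peak when it was higher at 8 cells than at 4 cells, than at 16 cells and than the mean of both stage means, each at an adjusted p under 0.05. An 8-cell dip was lower by the same 3 tests. Of 17138 genes tested, 195 were peaks (1.14%) and 184 were dips (1.07%). With the 9 libraries fitted alone there were 99 peaks and 49 dips, 98 and 49 of them among these genes.

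In cattle the embryo lives at first on RNA and protein stored in the oocyte, and its own genome becomes broadly active between the 8-cell and the 16-cell stage. Genes of this activation window include transcription factors, chromatin proteins and members of tandemly repeated gene families that are little used in other tissues. In human embryos several of them respond to the homeobox factor DUX4. At the same time maternal transcripts are degraded, some of which are later replaced by embryonic ones.

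The 4-cell, 8-cell and 16-cell embryos were all a cross of German Simmental with Brahman, matured, fertilised and cultured in vitro from ovaries of an abattoir. Each library came from a pool of 10 embryos chosen by eye, with the sperm of a commercial Zebu bull, so breed did not differ between the 3 stages. The other libraries, whose means did not enter the contrast, were 3 each of GV oocytes (immature, germinal vesicle) and MII oocytes (matured, metaphase II), both from Bos t. taurus cattle, and of blastocysts of the same cross. The labels do not say whether the 3 pools of a stage came from separate cultures, so p-values measure the spread between these pools. In pooled embryos, fewer embryos with a transcript and less transcript per embryo cannot be told apart.

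Values are given as scaled counts, the reads of a gene divided by the size factor of its library, in the order of replicates 1, 2 and 3. Differences are given on the deposited log2-like scale, with their standard error, and shrink the change of genes with few reads. The adjusted p beside a peak or dip is the largest of its 3 adjusted p-values (limma, Benjamini-Hochberg over all genes tested). The 9 libraries held 2438473 to 11971840 reads in genes, and 1 read was worth 0.563 to 2.82 scaled counts. A pair of libraries stood apart. The 8-cell replicate 2 had reads in 12393 genes, against 14081 and 14618 in replicates 1 and 3, and 16-cell replicate 1 had reads in 11970. With both left out, 305 peaks and 232 dips were called, of which 155 and 122 were among the 195 and 184.

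The values at 4, 8 and 16 cells chose the peaks and describe them here without a test. In 156 of the 195, all 3 8-cell libraries lay above all 6 neighbour libraries (2.12% of all genes tested), a share that the rule largely fixes. The median peak gene had 99.8 scaled counts at 8 cells, with 1.64% of that level at 4 cells and 8.27% at 16 cells. The 16-cell mean was the higher of both neighbours in 132 genes. At 4 cells 56 peak genes had no read in any library, and at 16 cells 48 had none. The difference from the neighbour mean had a median of 3.26 and ran from 0.96 to 6.95.

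The oocyte and blastocyst libraries describe the peaks in the whole course. Their means did not choose the genes. Their spread entered each p-value, so genes without reads there were called more easily, and the counts below are not independent of the choice. In 182 of the 195 the 8-cell mean was the highest of the 6 stages, and in 160 each other stage had less than 50% of it. Of all peak genes 80 had no read in the 6 oocyte libraries. Such counts were not made over all genes tested, so they cannot be compared with a share of all genes. A gene with reads in 3 libraries was tested, even where these were the 8-cell libraries alone. Blastocysts reached 50% or more of the 8-cell level in 27 genes and oocytes in 7, 3 of which were shared. Together the peak genes took 1.56% to 1.84% of the reads of the 8-cell libraries, against 0.222% to 0.246% at 4 cells, 0.366% to 0.428% at 16 cells and 0.214% to 0.227% in blastocysts. Oocyte libraries held 0.214% to 0.326%. The 8-cell libraries did not overlap any other library, as the choice of genes fixes for the 4-cell and 16-cell libraries.

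**Figure D1:**
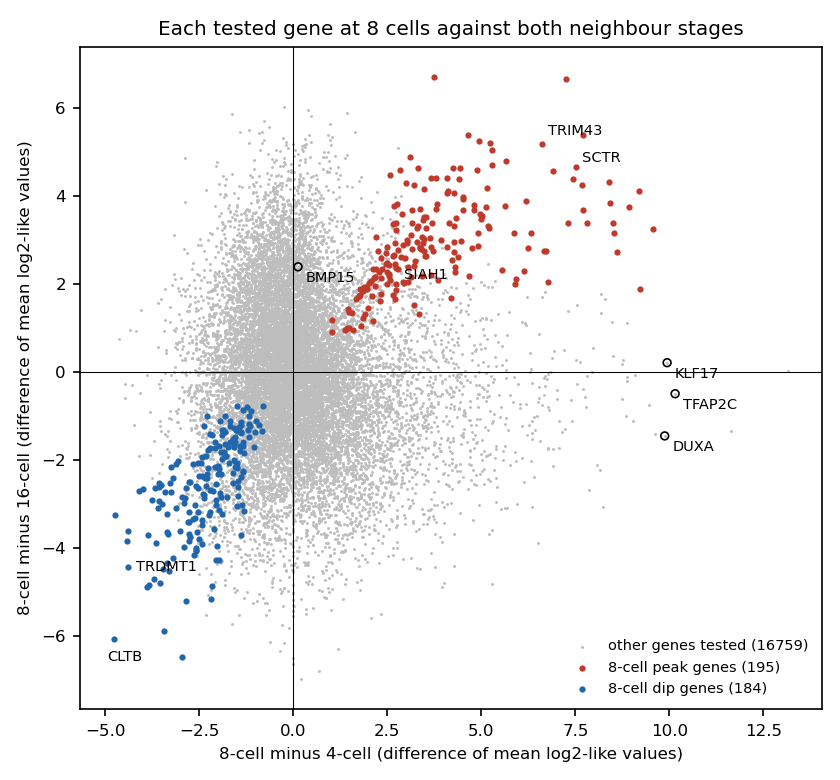
Each point is 1 of 17138 tested genes, with the difference of mean log2-like values between 8-cell and 4-cell embryos on the x axis and between 8-cell and 16-cell embryos on the y axis. The 195 peak genes (red) fill the upper right and the 184 dip genes (blue) the lower left, while the open circles KLF17, DUXA and TFAP2C lie far to the right at a height near or under 0 and BMP15 lies above 0 on the y axis alone. Both axes share the 8-cell libraries.

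Of the list of transcription factors and chromatin genes known from genome activation, 26 were tested gene by gene. Of these 2 were peaks, TRIM43 and MBD3L2, and none a dip. The list as a whole was not tested, and it was chosen with earlier results of these data known. The share of peaks in it, 7.69%, stands beside 1.14% of all genes. By the contrast with the neighbour mean 10 of the 26 were higher, against 6.82% of all genes, and the median difference was 1.26 against 0.018 over all genes. TRIM43, a tripartite-motif gene that is a DUX4 target in human, had 2.81, 0 and 5.22 in the 4-cell libraries, 585, 600.2 and 320.2 in the 8-cell libraries and 3.37, 25.4 and 7.42 in the 16-cell libraries. All 8-cell libraries were more than 10 times the highest value of any neighbour, and the difference was 5.91 ± 0.74 (adjusted p = 0.000151). MBD3L2, a relative of the methyl-CpG-binding protein MBD3, reached a higher level and kept more of it at 16 cells. It had 7.31, 0 and 7.84 in the 4-cell libraries, 2662, 3167 and 1900.4 in the 8-cell libraries and 632, 344 and 238 in the 16-cell libraries, a difference of 5.67 ± 0.69 (adjusted p = 0.012). The oocyte libraries held no MBD3L2 read. With a weight given to each library MBD3L2 lost its call, and voom, which models the recovered reads, called 4 peaks in the list.

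Further peaks outside that list were PRAMEF12, JMJD2D and ZNF41, each named by the size of its difference. Their families were counted after the values were seen. Of 2 tested PRAME genes 1 was a peak, and of 294 tested ZNF genes 2 were peaks and 1 a dip. Among all genes 1.14% were peaks and 1.07% dips. PRAMEF12, of the PRAME family of leucine-rich repeat proteins, had 13.5, 0 and 2.61 in the 4-cell libraries, 642, 749 and 173 in the 8-cell libraries and 108, 107 and 0 in the 16-cell libraries. Replicate 3 was the lowest 8-cell pool and still exceeded all 6 neighbour libraries (difference 5.03 ± 0.99, adjusted p = 0.013). It had no read in oocytes or blastocysts. Its call was lost without 16-cell replicate 3 (adjusted p = 0.1). JMJD2D, an older symbol of a demethylase of histone H3 lysine 9, had 5.06, 3.95 and 0 in the 4-cell libraries, 391, 894 and 426 in the 8-cell libraries and 106, 136 and 27.8 in the 16-cell libraries (difference 4.72 ± 0.85, adjusted p = 0.036). ZNF41, a zinc finger gene listed by locus number as LOC531674, went from no read at 4 cells to 1639.7, 1212 and 1042 at 8 cells and 693, 237 and 241 at 16 cells. Most of its difference of 5.55 came from the 4-cell side (9.22), with 1.89 from the 16-cell side (adjusted p = 0.043). The ZNF41 call was lost without 4-cell replicate 1 or 3, 8-cell replicate 1 or 2 or 16-cell replicate 2 or 3 (adjusted p = 0.051 to 0.12), and that of JMJD2D without 8-cell replicate 1 or 2 or 16-cell replicate 3 (adjusted p = 0.051 to 0.14). TRIM43, MBD3L2, PRAMEF12 and ZNF41 have close relatives in the genome, and how reads that match several copies were counted is not given in the sources used here, so their levels are uncertain to that degree.

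Several of the best known factors of this window were not peaks and were still high at 16 cells. KLF17, a Krüppel-like factor, had 7216, 7791 and 10364 scaled counts at 8 cells and 6843, 8801 and 6151 at 16 cells, after 11.8, 1.13 and 5.22 at 4 cells. The groups at 8 and 16 cells overlapped, and their difference was 0.22 (adjusted p = 0.81). TFAP2C, a factor of the later trophoblast, the nuclear receptor coactivator PNRC1, the RNA polymerase I factor TAF1D and KLF4 likewise differed strongly from 4 cells (10.15, 9.47, 9.09 and 5.11) and by -0.49, -0.74, -0.06 and -0.65 from 16 cells, where none passed (adjusted p = 0.54, 0.21, 1 and 0.15). DUXA, a homeobox gene of the DUX family, had 6562, 4816 and 5695 at 8 cells and 22781, 17251 and 9313 at 16 cells, and was lower at 8 cells than at 16 cells (difference -1.45, adjusted p = 0.045).

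ZSCAN4, a zinc finger gene of early embryos, was not a peak either, though its mean was lower at 16 cells than at 8 cells. It had 30.9, 0 and 9.14 in the 4-cell libraries, 2743, 3448 and 3068 in the 8-cell libraries and 2035, 827 and 531 in the 16-cell libraries, and the 8-cell libraries lay above all 6 neighbours. Its difference from 16 cells was 1.67 and did not pass (adjusted p = 0.18). The elongation factor gene SUPT4H1 had the same form, with 2170.1, 2256 and 1782 at 8 cells and 1637, 841 and 624 at 16 cells (difference 1.11, adjusted p = 0.14). NANOG, a pluripotency factor, had 193, 9.16 and 387 at 8 cells and 1847, 1858 and 906 at 16 cells, so that the mean of both neighbours cancelled the difference (0.04 ± 0.88).

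Genes without a name led the peaks. Of the 195 peak genes 69 (35.4%) carried only a locus number, against 11.9% of the tested genes and 3.26% of the dips, and they made up 15 of the 20 largest differences. Their median 8-cell level was 169 scaled counts, with 2.06 at 4 cells and 13.6 at 16 cells. No oocyte read was found for 43 of the 69, and for 37 of the 126 peak genes with a symbol. This was not counted over all genes tested. LOC617709 had the largest difference of all (6.95 ± 0.75, adjusted p = 1.6e-05), with 1.69, 0 and 1.31 in the 4-cell libraries, 494, 1113 and 301 in the 8-cell libraries and 31.5, 0 and 0 in the 16-cell libraries. LOC530538 was steadier between pools, with 2222, 1673 and 1679 at 8 cells, and had 89.9, 181 and 65.0 at 16 cells (difference 6.65 ± 0.65). RefSeq (assembly ARS-UCD2.0) lists 23 of the 69 as protein coding and 7 as pseudogenes, and 39 found no match there.

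Peak genes also lay side by side. Of 146 peak genes with a place in the RefSeq gene order, 26 (17.8%) had another peak gene as direct neighbour among the tested genes, and 18 of these had only a locus number. Of the tested genes that were not peaks, 1.67% lay next to a peak gene. The corresponding shares for dips were 2.29% and 2.27%. There were 8 runs of neighbouring peak genes, and the longest held 7 and 5 genes, all listed by locus number. LOC617709 and LOC530538 were in a run of 3. Runs with named genes held 2 genes each, LRRC3 with TSPEAR, PGLYRP2 with RASAL3, TNFAIP8L2 with SEMA6C, and RBM7 with C15H11orf71. Neighbouring copies of a family may share reads and genes that overlap cannot be told apart without strand, so neighbours are not independent counts.

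Another group of peaks had substantial RNA before the 8-cell stage and rose on top of it. All but TOB2 were picked with their values in view. SIAH1, a ubiquitin ligase, had the highest 8-cell mean of all peak genes. It had 2186, 2591 and 2884 in the 4-cell libraries, 22445, 17978 and 12086 in the 8-cell libraries and 5172, 3286 and 4315 in the 16-cell libraries (difference 2.38 ± 0.30, adjusted p = 0.000201). TOB2, an adaptor of the CCR4-NOT deadenylase, was the only peak among 79 tested genes of maternal mRNA decay and poly(A) control and had 143, 144 and 192 in the 4-cell libraries, 824, 1379 and 1066 in the 8-cell libraries and 237, 347 and 286 in the 16-cell libraries (difference 2.30 ± 0.34, adjusted p = 0.0012). Its mean at 8 cells was 6.82 times that at 4 cells and 3.76 times that at 16 cells. MEX3C, an RNA-binding ubiquitin ligase, went from 141, 102 and 222 at 4 cells to 1556, 1933 and 1201 at 8 cells and 620.2, 638 and 569.8 at 16 cells. C1D, a cofactor of the nuclear exosome, went from 79.3, 172 and 77.0 to 2003, 2041 and 1793 and back to 740.4, 565 and 510.4. For RBM7, an RNA-binding protein that works with the exosome, the 8-cell libraries had 3433, 1846 and 2243 and the 16-cell libraries 1367, 514 and 672. NUPL2, a nucleoporin of mRNA export, had 2404, 3613 and 2536 at 8 cells after 249, 368 and 289 at 4 cells. NMT2, which attaches myristate to proteins, had 565, 495 and 585, 1693, 2509 and 1563 and 564, 627 and 353 at the 3 stages. In each of these 7 genes the 8-cell libraries lay above all 6 neighbours, and all 7 kept their call without any single library.

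Pre-mRNA splicing had 1 peak and 1 dip among 68 tested factors, while 35 of the 68 were higher at 8 than at 4 cells (8.64% of all genes). The peak was CLK4, a kinase of SR splicing proteins, with 284, 530.4 and 334 in the 4-cell libraries, 1408, 986 and 986 in the 8-cell libraries and 561, 438 and 740.5 in the 16-cell libraries (difference 1.27 ± 0.31, adjusted p = 0.046). The dip was SNRPD3, a core Sm protein of the spliceosome, with 1491, 1170.4 and 572 in the 4-cell libraries, 529, 199 and 253 in the 8-cell libraries and 1604, 1256 and 993 in the 16-cell libraries (difference -1.89 ± 0.41, adjusted p = 0.018). CLK4 lost its call without 4-cell replicate 1 or 3, 8-cell replicate 1, 2 or 3 or 16-cell replicate 1 or 2 (adjusted p = 0.051 to 0.16), and SNRPD3 without 4-cell replicate 1 or 2 or 8-cell replicate 2 or 3 (adjusted p = 0.066 to 0.11). The splicing proteins CWC15, SMNDC1 and SFRS15, named after their values were seen, were peaks too. CWC15 had 5769, 4834 and 2957 at 8 cells and at most 3396 at 16 cells, and lost its call without 8-cell replicate 1 or 2 or 16-cell replicate 2 or 3 (adjusted p = 0.065 to 0.1). SMNDC1 lost its call without 8-cell replicate 1 or 2 or 16-cell replicate 2 or 3 (adjusted p = 0.06 to 0.18) and SFRS15 without 8-cell replicate 1 or 3 or 16-cell replicate 2 (adjusted p = 0.089 to 0.11).

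SCTR, the receptor of the hormone secretin, had the largest difference of the named genes (6.10 ± 0.84, adjusted p = 0.0012), with 0, 0 and 0 in the 4-cell libraries, 139, 1449 and 286 in the 8-cell libraries and 0, 19.8 and 66.8 in the 16-cell libraries. Replicate 2 held most of its reads. PGLYRP2, an amidase that cleaves bacterial peptidoglycan, was more even, with 664, 463 and 343 at 8 cells and 43.8, 31.1 and 52.0 at 16 cells (difference 5.34 ± 0.64, adjusted p = 0.0016). SLIT2, a secreted guidance protein, had 74.1, 538 and 7.88 at 8 cells and no read in the 6 neighbour libraries. LRRC3, a leucine-rich repeat membrane protein, had 19.2, 928 and 146 at 8 cells and at most 8.44 in a neighbour. In SCTR, SLIT2 and LRRC3 the 8-cell pools differed by more than 10 times. COL6A3, a chain of collagen VI, had 52.8, 125 and 159 at 8 cells after no read at 4 cells. JAKMIP3, a protein of nerve and endocrine cells, had 109, 84.0 and 7.88 and a single read at 16 cells. Its 8-cell pools also differed by more than 10 times.

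SHD, an adaptor protein, had 93.4, 128 and 104 at 8 cells and 0, 0 and 14.8 at 16 cells, and TPBG, a trophoblast glycoprotein, had 136, 669.7 and 336 and 75.3, 2.82 and 31.6. The call of SHD was lost without 4-cell replicate 1 or 8-cell replicate 3 (adjusted p = 0.05 to 0.11) and that of TPBG without 8-cell replicate 2 or 16-cell replicate 2 (adjusted p = 0.05 to 0.062). Homeobox genes of the HOX and NKX families, a family chosen after its values were seen, held 3 peaks among 37 tested (1.14% of all genes). NKX6-1 had 36.4, 23.7 and 61.7 at 8 cells, NKX2-1 had 64.2, 32.1 and 65.6 and HOXB4 had 35.6, 106 and 73.5, so all 3 were at low levels. NKX6-1 kept its call without any single library. NKX2-1 lost it without 4-cell replicate 1 or 2 or 8-cell replicate 1 or 3 (adjusted p = 0.079 to 0.17), and HOXB4 without 4-cell replicate 1 or 3 or 8-cell replicate 2 or 3 (adjusted p = 0.069 to 0.11).

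Unevenness between the 8-cell pools was common. The highest 8-cell library of a peak gene had a median of 2.63 times the lowest, 2.07 times in the 125 genes with a mean of at least 50 scaled counts and 5.14 times in the other 70. In 11 peak genes 1 pool held at least 80% of the 8-cell sum, and in 8 of these it was replicate 2, the library with the fewest detected genes of the 3. HLX, a homeobox gene, was the converse, with 1518, 7.64 and 19.7, nearly all in replicate 1. PTH, the parathyroid hormone gene, had 0.713, 217 and 2.62 and no read in a neighbour. HLX lost its call without 4-cell replicate 1, 2 or 3, 8-cell replicate 1 or 16-cell replicate 1 or 3 (adjusted p = 0.053 to 0.23), and PTH without 4-cell replicate 1, 2 or 3, 8-cell replicate 2 or 16-cell replicate 2 or 3 (adjusted p = 0.053 to 0.22). Peak genes were highest in replicates 1, 2 and 3 in 53, 83 and 59 cases. The part of the uneven pools in these calls was not tested beyond leaving each library out.

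A few peaks fell at 16 cells and were high again in blastocysts. NRBP2, a pseudokinase, had 2.81, 1.13 and 1.31 in the 4-cell libraries, 563, 547 and 480.4 in the 8-cell libraries and 7.87, 308 and 129.9 in the 16-cell libraries, and 341, 460.1 and 468 in blastocysts (difference 4.74 ± 0.78, adjusted p = 0.025). The 16-cell pools ranged widely. MYCN, a MYC-family transcription factor, was the only peak among 22 pluripotency factors and among 46 immediate early genes, and both lists hold it. It had 301, 65.7 and 231 at 8 cells, 12.4, 50.8 and 63.1 at 16 cells and 523, 295 and 355 in blastocysts (difference 4.02 ± 0.68, adjusted p = 0.045). BAG1, a cochaperone of HSP70, was the only peak among 42 heat shock proteins and chaperones. It was present throughout, with 269.5, 188 and 313, 1236, 1259.9 and 566 and 306, 514 and 349 at the 3 stages and 1272, 968 and 696 in blastocysts (difference 1.62 ± 0.36, adjusted p = 0.021). NRBP2 lost its call without 8-cell replicate 1 or 2 or 16-cell replicate 1 (adjusted p = 0.058 to 0.16), MYCN without 4-cell replicate 2 or 3, 8-cell replicate 1 or 3 or 16-cell replicate 1 (adjusted p = 0.05 to 0.17), and BAG1 without 8-cell replicate 1 or 2 or 16-cell replicate 1 or 3 (adjusted p = 0.053 to 0.082).

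**Figure D2:**
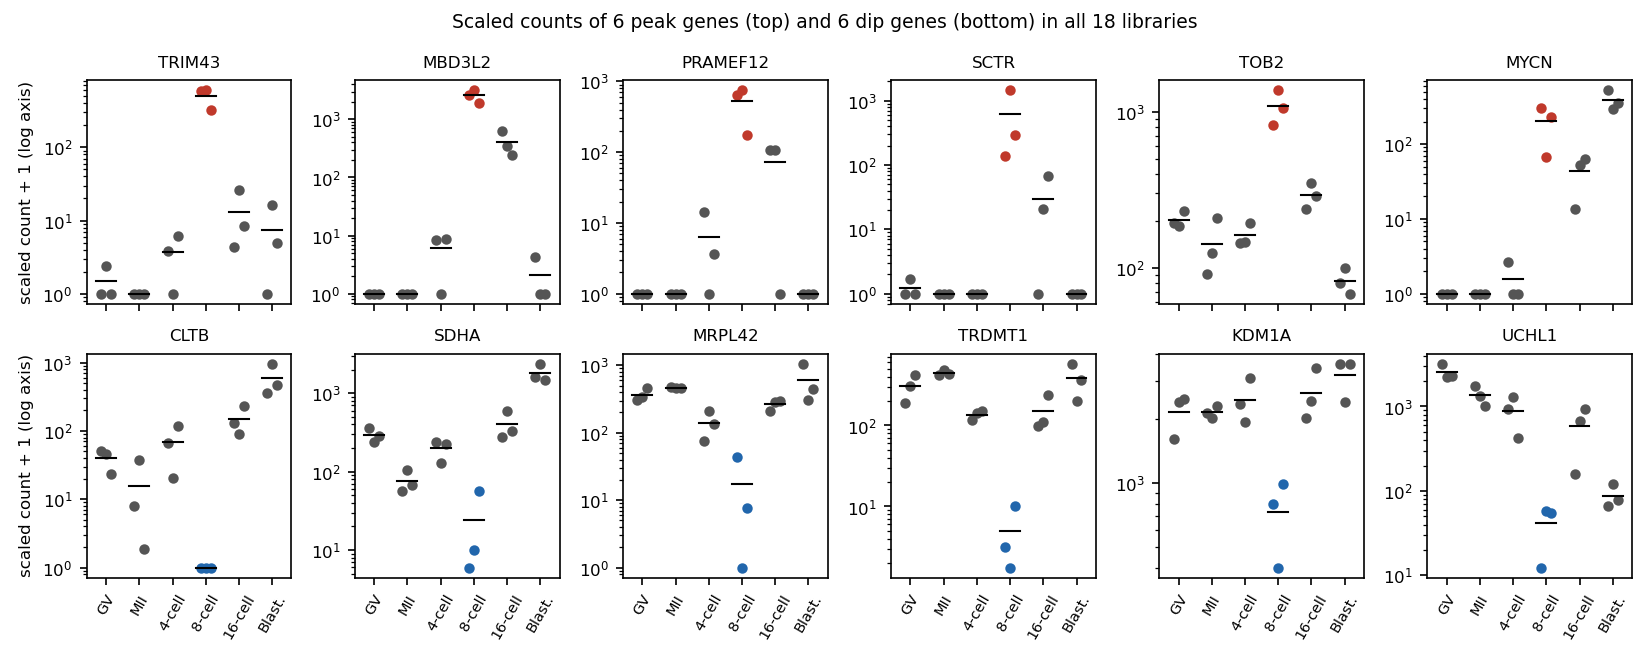
Scaled counts plus 1 on a log axis for 6 peak genes (top row, 8-cell libraries in red) and 6 dip genes (bottom row, 8-cell libraries in blue) in all 18 libraries, with replicates 1 to 3 from left to right as points and the stage mean as a line. TRIM43, PRAMEF12 and SCTR appear at 8 cells and are nearly gone in blastocysts, MYCN is high again there, and the dip genes leave a gap at 8 cells between earlier and later expression.

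The dips were the mirror image, genes with RNA in the oocyte and in later embryos that were low at 8 cells. In 158 of the 184, all 8-cell libraries lay below all 6 neighbour libraries (2.23% of all genes tested), which the rule again largely fixes. The 8-cell mean of the median dip gene was 24.8% of the 4-cell mean and 17.6% of the 16-cell mean. It was also 20.1% of the GV oocyte mean, 19.3% of the MII oocyte mean and 12.4% of the blastocyst mean. In 180 genes the 8-cell mean was the lowest of the 6 stages, and in 183 both oocyte stages were higher. As for the peaks, the spread of the oocyte and blastocyst libraries entered each p-value. Genes chosen as low at 8 cells will often be lowest of all stages, and these counts were not made over all genes tested. The difference from the neighbour mean had a median of -2.37, from -0.78 to -5.42. The 16-cell mean was the higher neighbour in 116 genes. The lowest 8-cell library was replicate 2 in 117 dip genes, replicate 1 in 45 and replicate 3 in 22.

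Dip genes took 0.342% to 0.526% of the reads at 8 cells, against 1.33% to 1.46% at 4 cells and 1.29% to 1.67% at 16 cells. They took 1.72% to 1.85% in oocytes and 2.65% to 2.74% in blastocysts. Unlike the peaks, 178 of the 184 had a gene symbol. The count of dips fell to 95 without 4-cell replicate 1 and to 122 without 4-cell replicate 2. Of the 184 dips, 100 were called without 8-cell replicate 2 and 124 without 8-cell replicate 1.

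**Figure D3:**
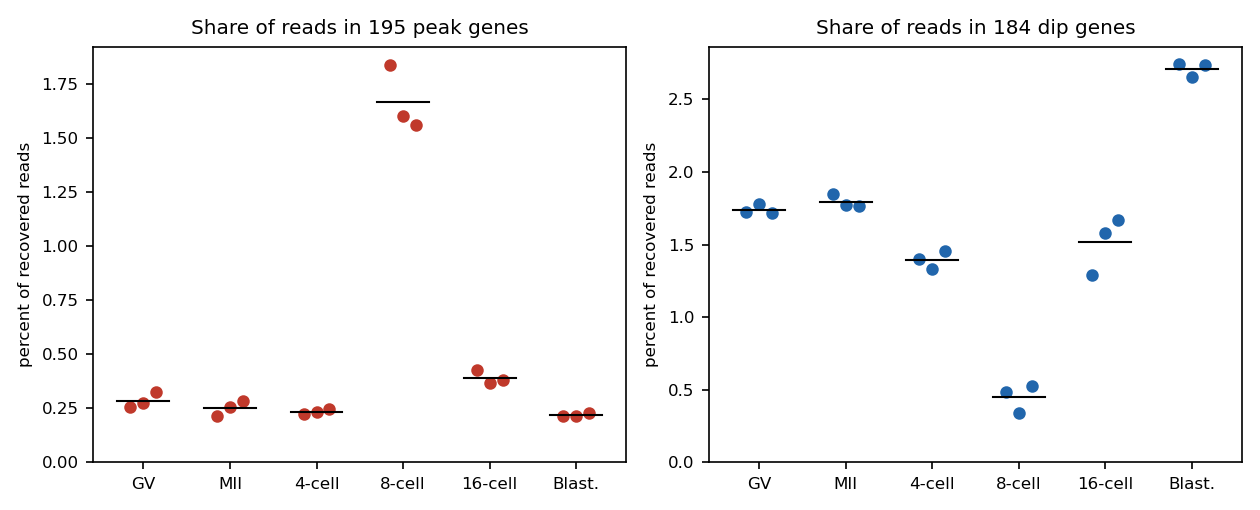
Percent of the recovered reads of each library that fell in the 195 peak genes (left, red) and the 184 dip genes (right, blue) at the 6 stages, with replicates 1 to 3 from left to right as points and the stage mean as a line. The 8-cell libraries hold 1.56% to 1.84% in peak genes, above all other libraries, and 0.342% to 0.526% in dip genes, below all other libraries.

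Among the lists, mitochondrial energy metabolism held the most dips. Of 75 nuclear-encoded genes of oxidative phosphorylation 8 were dips (10.7%, against 1.07% of all genes) and none a peak. The 8 were SDHA, NDUFA13, NDUFA9, NDUFV3, NDUFS4, NDUFAB1, ATP5A1 and ATP5O. By the contrast with the neighbour mean 30 of the 75 were lower, against 4.58% of all genes, and the median difference was -1.39. The sides were unequal, since 59 were lower than at 16 cells (14.8% of all genes), while 11 were lower (4.13%) and 12 higher (8.64%) than at 4 cells. SDHA, the flavoprotein of succinate dehydrogenase, had 241, 126 and 223 in the 4-cell libraries, 4.99, 9.16 and 55.1 in the 8-cell libraries and 278, 593 and 327 in the 16-cell libraries (difference -3.85 ± 0.49, adjusted p = 0.00027). Its blastocyst libraries had 1596, 2361 and 1468.

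NDUFA13, a subunit of complex I, was low already at 4 cells. It had 52.9, 23.1 and 26.1 in the 4-cell libraries, 2.85, 3.82 and 6.56 in the 8-cell libraries and 518, 279.5 and 147 in the 16-cell libraries (difference -3.67 ± 0.55, adjusted p = 0.025), and its call was lost without 4-cell replicate 1 or 8-cell replicate 1 (adjusted p = 0.07 to 0.12). ATP5A1, the alpha subunit of ATP synthase, was steady within stages, with 1125, 844 and 981 in the 4-cell libraries, 314, 400.1 and 298 in the 8-cell libraries and 796, 604 and 1210.1 in the 16-cell libraries (difference -1.42 ± 0.25, adjusted p = 0.0019). Without 8-cell replicate 2, the lower members of the list numbered 18 and the median difference was -0.95. The dips of the list numbered 4 to 8 over the 9 fits without 1 library. NDUFA9 lost its call in 7 of these fits (adjusted p = 0.05 to 0.23) and NDUFAB1 in 3 (adjusted p = 0.05 to 0.085). NDUFS4 lost it without 4-cell replicate 1 (adjusted p = 0.057). SDHA, NDUFV3, ATP5A1 and ATP5O kept their call without any single library.

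Other mitochondrial genes were among the strongest dips. NFU1, which delivers iron-sulphur clusters, had 178, 199 and 52.2 in the 4-cell libraries, 34.2, 0 and 3.94 in the 8-cell libraries and 326, 302 and 158 in the 16-cell libraries (difference -4.40 ± 0.68, adjusted p = 0.0015). CHCHD1, a protein of the mitochondrial ribosome, had 323, 248 and 153 in the 4-cell libraries, 13.6, 2.29 and 9.19 in the 8-cell libraries and 338, 226 and 44.5 in the 16-cell libraries (difference -4.12 ± 0.61, adjusted p = 0.000364). In both, no 8-cell library reached a neighbour. Mitochondrial ribosomal proteins, a family chosen after its values were seen, held 6 dips among 75 tested, MRPL38, MRPL42, MRPL43, MRPS2, MRPS5 and MRPS23 (1.07% of all genes), with a median difference of -0.80 over all 75. Most of this came from the 16-cell side, with medians of -1.60 against 16 cells and -0.34 against 4 cells. Of the 75, 40 were lower than at 16 cells (14.8% of all genes). Against 4 cells 6 were lower (4.13%) and 3 higher (8.64%). MRPL42 was the largest of the dips, with 73.7, 210.5 and 134 at 4 cells, 42.8, 0 and 6.56 at 8 cells and 209, 285 and 293 at 16 cells (difference -4.20 ± 0.64, adjusted p = 0.0014). MRPL38 and MRPL42 kept their call without any single library. MRPL43 lost it without 8-cell replicate 2 or 16-cell replicate 2 (adjusted p = 0.055), MRPS2 without 4-cell replicate 1 or 2, 8-cell replicate 2 or 16-cell replicate 2 (adjusted p = 0.057 to 0.11), MRPS5 without 4-cell replicate 1 or 2 or 8-cell replicate 1 or 2 (adjusted p = 0.062 to 0.12) and MRPS23 without 4-cell replicate 1 or 2 or 8-cell replicate 2 (adjusted p = 0.06 to 0.13). Of 81 cytosolic ribosomal proteins 0 were peaks or dips, 47 were higher at 8 than at 4 cells (8.64% of all genes) and 76 lower than at 16 cells (14.8%).

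Cell cycle G1 and DNA replication was the second list with several dips, 6 of 78 (7.69%, against 1.07% of all genes). It held no peak. Against the neighbour mean 9 of the 78 were lower (4.58% of all genes) and 5 higher (6.82%). With the 9 libraries fitted alone 1 of the 78 was a dip. The median of the list, -0.03, was near that of all genes. E2F6, a repressor of the E2F family, had 18.0, 18.6 and 44.4 in the 4-cell libraries, 0.713, 5.34 and 3.94 in the 8-cell libraries and 265, 124 and 182 in the 16-cell libraries (difference -3.52 ± 0.56, adjusted p = 0.028). PRIM1, the catalytic subunit of primase, had 174, 227 and 249 in the 4-cell libraries, 33.5, 0 and 73.5 in the 8-cell libraries and 80.9, 90.3 and 143 in the 16-cell libraries (difference -3.05 ± 0.72, adjusted p = 0.025). Both calls depended on single libraries, E2F6 being lost without 4-cell replicate 3 or 8-cell replicate 1 (adjusted p = 0.1 to 0.14) and PRIM1 without 8-cell replicate 2 or 16-cell replicate 3 (adjusted p = 0.078 to 0.17). RRM1, the large subunit of ribonucleotide reductase, was better supported, with 651, 482 and 790.1 in the 4-cell libraries, 238, 134 and 350.4 in the 8-cell libraries and 1604, 1553 and 1646 in the 16-cell libraries (difference -2.14 ± 0.31, adjusted p = 0.0084). The remaining members were POLE, a replicative DNA polymerase, CDC45L of the replicative helicase, and RPA3, which binds single-stranded DNA. POLE lost its call without 4-cell replicate 2 or 3 or 8-cell replicate 2 (adjusted p = 0.057 to 0.065), CDC45L without 4-cell replicate 1 or 16-cell replicate 2 (adjusted p = 0.05 to 0.068), and RPA3 without 4-cell replicate 1 or 2 or 8-cell replicate 2 (adjusted p = 0.11 to 0.12).

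DNA repair genes named after their values were seen were also dips. FANCD2, of the Fanconi anaemia pathway, had 1354, 1488 and 1917 at 4 cells, 369, 313 and 626 at 8 cells and 664, 1059 and 1585 at 16 cells. PARP2, which adds poly(ADP-ribose) at DNA breaks, had 292, 418 and 500.2, 99.8, 13.7 and 34.1 and 279.8, 215 and 330.4, and PMS2, of mismatch repair, had 21.4, 9.16 and 39.4 at 8 cells. Their differences were -1.60 ± 0.29, -3.00 ± 0.43 and -3.11 ± 0.47 (adjusted p = 0.0049, 0.000338 and 0.000401). In PARP2 and PMS2 replicate 2 was the lowest 8-cell pool, and all 3 genes kept their call without any single library.

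Chromatin and transcription genes dipped singly rather than as lists. KDM1A, the demethylase LSD1 of histone H3 lysine 4, was the most abundant of them, with 2333, 1919 and 3087 in the 4-cell libraries, 799, 402 and 986 in the 8-cell libraries and 2021, 2417 and 3443 in the 16-cell libraries (difference -1.86 ± 0.28, adjusted p = 0.000524). HDAC8, a histone deacetylase, had 95.1, 276 and 112 in the 4-cell libraries, 24.2, 3.82 and 13.1 in the 8-cell libraries and 19.1, 90.3 and 141 in the 16-cell libraries. Here the groups overlapped, since 16-cell replicate 1 lay below 8-cell replicate 1 (difference -2.71 ± 0.59, adjusted p = 0.021), and the call was lost without 8-cell replicate 2 or 16-cell replicate 2 or 3 (adjusted p = 0.067 to 0.11). These were the 2 dips among 64 histone modifiers (3.12%). MED23, a Mediator subunit, was the single dip among 92 genes of RNA polymerase II initiation and elongation, a share near the 1.07% of all genes. It had 197, 382 and 656 in the 4-cell libraries, 37.1, 4.58 and 43.3 in the 8-cell libraries and 212, 237 and 692 in the 16-cell libraries (difference -3.79 ± 0.52, adjusted p = 0.00013). TRDMT1, a methyltransferase that modifies transfer RNA, had the smallest adjusted p of the named dips (1.01e-05), with 114, 140.5 and 152 in the 4-cell libraries, 2.14, 0.764 and 9.19 in the 8-cell libraries and 97.8, 110.1 and 238 in the 16-cell libraries (difference -4.41 ± 0.47).

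Further dips stood singly or in pairs in other lists, counts that say nothing of the list when 1.07% of all genes were dips. BUB1B, a kinase of the spindle checkpoint, and ANAPC1, a scaffold of the anaphase-promoting complex, were the dips among 60 regulators of meiosis and M phase. BUB1B had 844, 985 and 819 at 8 cells, with 1869, 1335 and 3181 at 4 cells and 1545, 1415 and 2539 at 16 cells (difference -1.09 ± 0.27, adjusted p = 0.02). ANAPC1 differed by -1.46 ± 0.38 (adjusted p = 0.041). BUB1B lost its call without 4-cell replicate 3, 8-cell replicate 1 or 3 or 16-cell replicate 3 (adjusted p = 0.051 to 0.12), and ANAPC1 without 4-cell replicate 1 or 3, 8-cell replicate 2 or 16-cell replicate 1, 2 or 3 (adjusted p = 0.051 to 0.3). PSMD3, a subunit of the 19S regulator, was the dip among 42 proteasome genes and was even between the 8-cell pools. It had 688, 599 and 692 in the 4-cell libraries, 157, 154 and 168 in the 8-cell libraries and 593, 1135 and 548 in the 16-cell libraries (difference -2.08 ± 0.37, adjusted p = 0.0024). By the contrast with the neighbour mean 10 of the 42 proteasome genes were lower (4.58% of all genes) and 0 higher. Against 16 cells 23 were lower (14.8%) and 2 higher (16.3%). Against 4 cells 2 were lower (4.13%) and 6 higher (8.64%). EIF3L, of translation initiation factor 3, was the dip among 53 translation factors, with 1024, 1005 and 718 at 8 cells against 3849, 2023 and 2513 and 3266, 1677 and 1915 (difference -1.42 ± 0.27, adjusted p = 0.0039). The COP9 signalosome, a regulator of cullin ubiquitin ligases that was chosen after its values were seen, held 3 dips among 9 tested subunits (1.07% of all genes). COPS6 had 213, 319 and 119, 44.9, 34.4 and 55.1 and 145, 274 and 236 at the 3 stages and kept its call without any single library. COPS3 lost its call without 4-cell replicate 1 or 2 or 8-cell replicate 1 or 3 (adjusted p = 0.074 to 0.1), and COPS8 without 4-cell replicate 1, 2 or 3 or 8-cell replicate 1 or 2 (adjusted p = 0.053 to 0.14).

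Some dip genes had few or no reads at 8 cells. CLTB, a light chain of clathrin, had 66.4, 19.2 and 116 at 4 cells, no read in any 8-cell library and 129, 90.3 and 228 at 16 cells (difference -5.42 ± 0.71, adjusted p = 0.000356). COMMD1, a protein of copper balance and endosomal sorting, and GSDMB, a gasdermin, also had no 8-cell read, with 6.75, 21.4 and 13.1 and 47.8, 6.21 and 19.6 at 4 cells and 149, 576 and 72.4 and 103, 33.9 and 497 at 16 cells. Of the 184 dips 7 had none. COMMD1 lost its call without 4-cell replicate 2 (adjusted p = 0.057), and GSDMB without 4-cell replicate 1 (adjusted p = 0.083). ATP6V0B, a subunit of the vacuolar proton pump, had 105, 92.0 and 18.3 in the 4-cell libraries, 2.85, 6.87 and 0 in the 8-cell libraries and 148, 217 and 89.1 in the 16-cell libraries (difference -4.17 ± 0.63, adjusted p = 0.0018). PON2, a lactonase of the paraoxonase family, had 0, 0 and 5.25 at 8 cells and at least 21.4 in each neighbour library.

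NID1, a basement membrane protein, had 0.713, 0 and 61.7 at 8 cells and 183, 113 and 269 at 16 cells, and lost its call without 4-cell replicate 2 or 8-cell replicate 1 or 2 (adjusted p = 0.052 to 0.054). TMEM41A, a membrane protein, had 30.7, 0 and 11.8 and 182, 472 and 158. ODC1, the rate-limiting enzyme of polyamine synthesis, named after its values were seen, was the clearest of the abundant dips. It had 4551, 5824 and 5425 in the 4-cell libraries, 1176, 1458 and 2004 in the 8-cell libraries and 6134, 6339 and 4699 in the 16-cell libraries (difference -1.85 ± 0.21, adjusted p = 1.68e-05). The 8-cell pools lay at least 2 times below every neighbour. SQSTM1, the autophagy receptor p62, also chosen after its values were seen, had 959, 1110.0 and 603, 114, 129.8 and 22.3 and 449, 463 and 399 at the 3 stages (difference -3.05 ± 0.38, adjusted p = 0.000197).

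Oocyte transcripts followed another course, with 1 dip and no peak among 42 oocyte and maternal effect genes. UCHL1, a deubiquitinating enzyme abundant in oocytes, was the dip. It had 3186, 2218 and 2316 in GV oocytes, 940.0, 1303 and 423 in the 4-cell libraries, 11.4, 57.3 and 53.8 in the 8-cell libraries and 157, 672 and 932 in the 16-cell libraries, and 64.7, 119 and 77.4 in blastocysts (difference -4.02 ± 0.51, adjusted p = 0.000139). Of the 42 genes 31 were higher at 8 than at 16 cells (16.3% of all genes). Against 4 cells none was higher and 9 were lower (4.13% of all genes), with a median difference of -1.24 over the 42. BMP15, an oocyte growth factor, was higher than the neighbour mean (1.26 ± 0.35, adjusted p = 0.026) without being a peak, since it differed from 4 cells by 0.12 and from 16 cells by 2.40. BTG4, of the deadenylation machinery, had the same form (0.07 and 3.50), and GDF9 did not pass against the neighbour mean (1.04 ± 0.44, adjusted p = 0.14). CGN, a tight junction protein, was the dip among 45 genes of junction and polarity. It had 140.1, 440.2 and 132 in the 4-cell libraries, 1.43, 5.34 and 6.56 in the 8-cell libraries and 49.4, 98.8 and 65.0 in the 16-cell libraries (difference -4.00 ± 0.48, adjusted p = 0.000218).

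Of the 28 lists, 13 held neither a peak nor a dip. They covered DNA methylation and demethylation (21 tested), KLF and SP zinc finger factors (23), chromatin remodellers (43), cumulus and granulosa cell markers (25), cytosolic ribosomal proteins (81), histone genes (19), hypoblast factors (14), the interferon response (39), nucleolus and ribosome biogenesis (79), p53 response and apoptosis (33), signalling by BMP, FGF, WNT and Notch (68), trophectoderm factors (31) and sperm markers (16). Summed cumulus and granulosa markers ranged from 3512 to 4492 scaled counts at 4 cells, 4077 to 5079 at 8 cells and 2603 to 11468 at 16 cells. FOXL2, AREG and BTC were at 0 in all 9 libraries, while other members differed between stages. The means at 4, 8 and 16 cells were 27.4, 84.8 and 3382 for SPARC, 2.63, 7.44 and 1279 for LUM, 17.5, 39.0 and 552 for VIM, 2.26, 679 and 343 for COL1A1, 4.70, 0 and 137 for CYP11A1 and 1323, 1434 and 275 for HAS2. Their part in the peaks and dips was not tested. Summed sperm markers ranged from 705 to 1623 at 8 cells, from 899 to 1586 at 4 cells and from 353 to 903 at 16 cells.

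**Figure D4:**
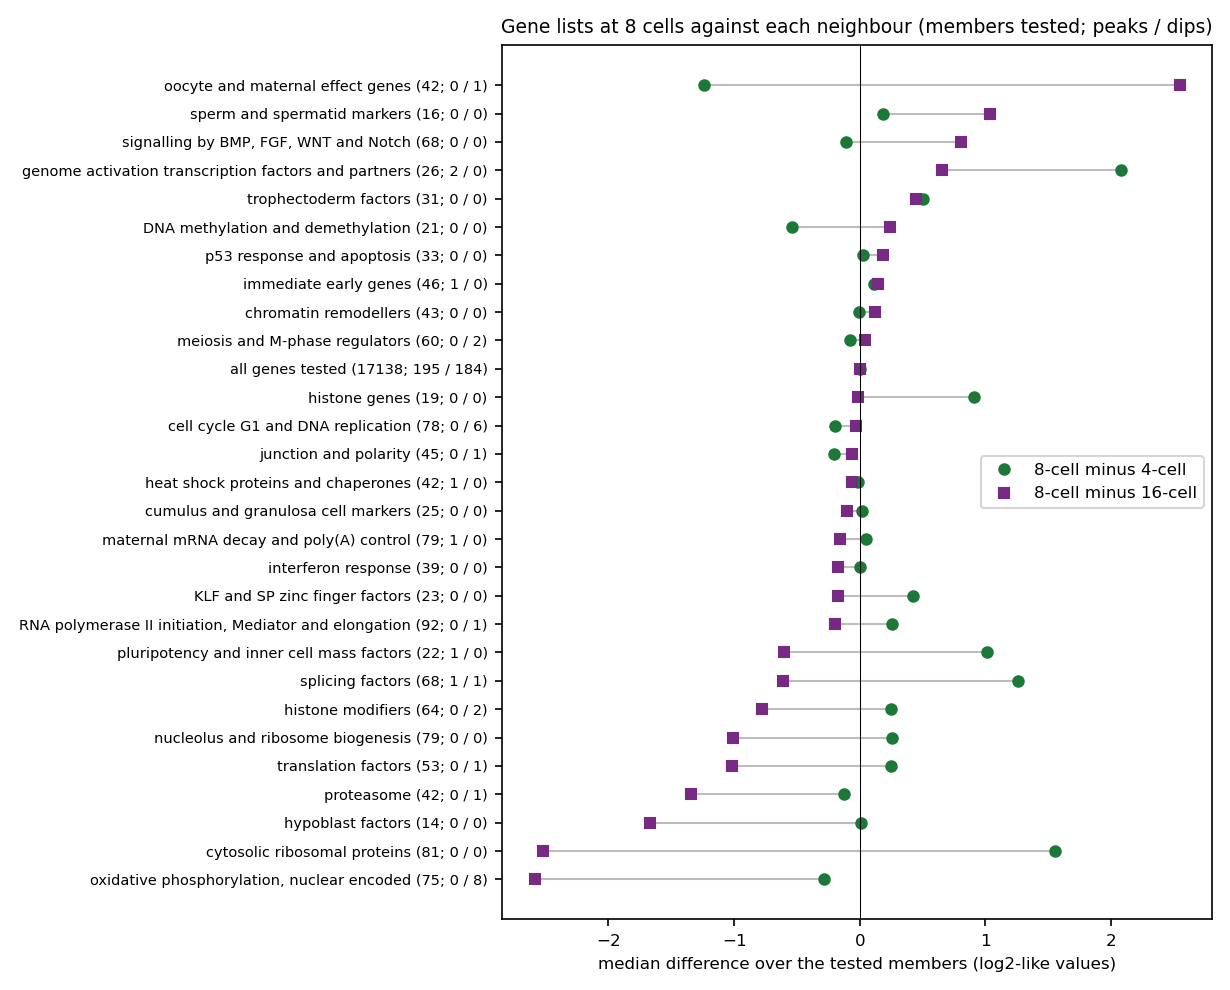
Median difference of log2-like values over the tested members of each list, 8-cell minus 4-cell (green circles) and 8-cell minus 16-cell (purple squares), with the number tested and the numbers of peaks and dips in brackets. Genome activation factors and trophectoderm factors have both medians above 0, oxidative phosphorylation and the proteasome both below 0, and ribosomal proteins and oocyte genes have 1 on each side. Both differences share the 8-cell libraries.

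Most genes that differed from the neighbour mean passed against 1 neighbour only, and a smaller difference from the other could have been missed. Of 1169 genes higher than the mean (6.82%), 195 were peaks, 371 were beyond 4 cells alone, 600 beyond 16 cells alone and 3 beyond neither. Of 785 lower genes (4.58%), 184 were dips, 81 were beyond 4 cells alone, 517 beyond 16 cells alone and 3 beyond neither. The genes at the edge of the call show its resolution. IL21R and KCNV1 were the peaks nearest the threshold, with 4.28, 0 and 18.4 and 7.84, 0 and 10.5 at 8 cells and no read in a neighbour. DUSP4 and DGKE missed it narrowly, with 2.14, 12.2 and 5.25 and 765, 476 and 667 at 8 cells. RBM6 and BCS1L were the nearest dips, with 794, 569.6 and 416 and 12.8, 48.9 and 17.1. ESF1 and CCDC127, with 1117, 416 and 904 and 155, 51.9 and 122, fell just outside. IL21R lost its call without 4-cell replicate 1, 2 or 3, 8-cell replicate 1 or 3 or 16-cell replicate 2 or 3 (adjusted p = 0.052 to 0.28), KCNV1 without 4-cell replicate 1, 2 or 3, 8-cell replicate 1 or 3 or 16-cell replicate 2 or 3 (adjusted p = 0.051 to 0.22), RBM6 without 4-cell replicate 1, 2 or 3, 8-cell replicate 2 or 3 or 16-cell replicate 1, 2 or 3 (adjusted p = 0.056 to 0.19), and BCS1L without 4-cell replicate 1 or 3 or 8-cell replicate 1 or 3 (adjusted p = 0.13 to 0.2).

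Calls of genes named by rule also depended on the model. With the 9 libraries fitted alone, ZNF41, PRAMEF12, NRBP2, MYCN, CLK4, IL21R and KCNV1 lost their call as peaks and COMMD1, GSDMB, NID1, TMEM41A, E2F6, PRIM1, HDAC8, ANAPC1, BUB1B, NDUFA13, RBM6 and BCS1L as dips. With a weight for each library, the peaks MBD3L2, ZNF41, LRRC3, NRBP2, JMJD2D, BAG1, MYCN and CLK4 and the dips PRIM1, HDAC8, ANAPC1, BUB1B, SNRPD3, EIF3L and RBM6 were not called. With voom, CLK4, IL21R, KCNV1, HDAC8, ANAPC1, NDUFA13, RBM6 and BCS1L were not called. MYCN was also lost with a looser filter, 1 read in 1 library.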

How the data were processed

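RNA was amplified with poly(A) and random primers (NuGEN Ovation kit) and sequenced as single reads, per the labels' protocols. Strand is not marked by the kit as described, and after amplification reads do not count molecules. The authors deposited 1 table of log2-like, variance-stabilised values for 21668 genes. The submitters' processing notes name CASAVA 1.6, TopHat2 2.0.3, HTSeq, DESeq and build UMD3.1; the annotation is not given in the sources used here.

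The transformation was inverted in closed form, and all 390024 values gave whole reads (tolerance 1e-08). The main test was limma 3.58.1 (R 4.3.3) on the deposited values, with a variance trend and 1 model of 6 stages over all 18 libraries. Genes detected (1 read or more) in 3 or more libraries were tested two-sided at an adjusted p of 0.05. Tables and plots used Python 3.11.15, pandas 2.3.3 and matplotlib 3.10.9. RefSeq names (ARS-UCD2.0) matched 18745 genes and gave a symbol to 2564 of 5890 locus numbers. The test was tried on simulated data first, with the within-stage spread of all 18 libraries. Of 50 peaks or dips of each size, it found 1 at 2 times, 22 at 4 times, 26 at 8 times and 41 at 16 times. It called 0 of 16938 unchanged genes. The simulation gave each gene the same spread at all stages, and changed genes were not drawn from those with few reads. The real libraries differed in spread between stages, so these rates may not hold for the calls made here.

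Named genes were the 14 largest peaks and 14 largest dips with a symbol, an 8-cell mean or neighbour mean of at least 50 scaled counts and no overlap with neighbour libraries, up to 3 peaks and 2 dips of each of 28 lists, 12 genes known from embryos, and 2 genes on each side of the threshold. Members and lists were chosen with earlier results of these data known. The 19 alternatives comprised other normalizations, filters and spread models, voom, a replicate block and leaving out libraries. A dip that the rule names is not reported here. Sequences were not used here, and positions served only to order neighbouring genes.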

Additional observations from a re-analysis of the deposited data

How the results depend on the processing

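No gene called in the main test was called in the opposite direction under any of the 19 alternatives. Of 195 peaks 62 were called under all 19, and of 184 dips 39. In the 9 fits without 1 library, 96 peaks and 51 dips kept their call throughout, with 161 to 274 peaks, 95 to 239 dips, 776 to 1408 genes higher and 447 to 1052 lower than the neighbour mean. Among single libraries, without 4-cell replicate 1 the dips were 95 and the lower genes 523, without 4-cell replicate 2 the dips were 122, without 8-cell replicate 1 the higher genes were 776, and without 8-cell replicate 2 the lower genes were 447. The 9 libraries fitted alone gave 99 peaks, 49 dips, 485 higher and 174 lower genes. That fit had fewer libraries behind the spread, and libraries also differed in spread. The library weights, lower for noisier libraries, were 0.304 to 1.42 at 8 cells and 0.31 to 0.545 at 16 cells. They were 1.06 to 2.7 at 4 cells and 1.19 to 3.37 in MII oocytes. The main fit pooled the spread of all stages. Without 8-cell replicate 2 and 16-cell replicate 1 there were 305 peaks, and NRBP2, JMJD2D, BAG1, CLK4, PRIM1, ANAPC1, SNRPD3 and RBM6 were not called. Other scalings or a fit without the variance trend lost ANAPC1, BUB1B, CLK4, SNRPD3, IL21R, KCNV1 and RBM6. NANOG changed sign without 4-cell replicate 2, without 8-cell replicate 1 or 3 and without 16-cell replicate 3, ranging from -0.94 to 1.51 over the fits without 1 library, and with library medians set equal (-0.022), and passed in none of these. The cause of these changes was not tested.

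Whether libraries with the same replicate number share a batch was not tested. Deviations of same-numbered libraries correlated by -0.0026 to 0.107, those of others by -0.0878 to 0.0431. These correlations were small and their ranges overlapped, but the same-numbered range lay higher. A replicate block gave 205 peaks, 215 dips, 1347 higher and 926 lower genes, each more than in the main test. With it MYCN and BCS1L were no longer called. Reads set the floor of detection at 0.563 to 2.82 scaled counts, so a low gene called from 0 in both neighbours rests on few reads.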
